A study of Caenorhabditis elegans with 6 samples.

Results

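The genes *parp-1*, *parp-2* and *sir-2.1* encode enzymes of *Caenorhabditis elegans* that consume NAD, 2 of them poly(ADP-ribose) polymerases (PARPs) and 1 a sirtuin. They were found by symbol in the deposited tables that compare the groups, where the comma in the sirtuin's symbol was read as a dot and the older symbols *pme-1* and *pme-2* were also allowed. Each gene had 1 probe set, so the members are 3 of the 29317 probe sets of the array. RNA came from whole animals of the wild-type strain N2, labelled as young adults of 3 days. It was measured on Gene 1.1 ST microarrays from Affymetrix, on which a set of short probes stands for each transcript. Synchronized larvae were kept in S medium for 48 h at 20 °C, beginning 16 to 18 h after hatching. The baicalein group received 100 µM of this plant flavonoid with 0.4% DMSO, the solvent it was dissolved in, the DMSO group received 0.4% DMSO alone and the water group received neither. Each group has 2 arrays, called independent trials 1 and 2 in the labels, which do not say what was separate between them, so p-values measure the spread between these arrays, which may be technical.

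PARPs split NAD and join its ADP-ribose part to proteins, often as long chains at the site of a DNA strand break, where the chains help to gather repair factors. Sirtuins split NAD to take acetyl groups off histones and other proteins, and SIR-2.1 is the worm protein closest to yeast Sir2 and mammalian SIRT1. In *C. elegans*, PARP genes are studied in the response to DNA damage, and *sir-2.1* in stress resistance and ageing, where its protein can act together with the FOXO transcription factor DAF-16. Both enzyme families draw on the same cellular NAD, which is why they are often examined side by side.

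All values are log2 values made by the authors with RMA (Robust Multiarray Average), and a difference of 1 on this scale is a doubling. Differences between groups were tested with limma over all 29317 probe sets, with p-values adjusted by the Benjamini-Hochberg method, and an adjusted p under 0.05 was called. The median of all values on all arrays was 1.51, and the values of the 3 members lay above it on every array. Across probe sets, which do not count as replicates, the Pearson correlation between the arrays of a group was 0.954 for baicalein, 0.978 for DMSO and 0.986 for water. Over all probe sets, 507 were called higher and 2060 lower in baicalein than in DMSO, a split that became 1276 and 1503 when quantile normalization was applied again, 1403 and 1899 with cyclic loess and 289 and 2066 with arrays centred on their medians. Between DMSO and water 3183 were higher and 4890 lower in DMSO, where the median difference over all probe sets was 0.20 once arrays were centred on their medians, against 0.09 in the deposited values. Between baicalein and water 1992 were higher and 4513 lower in baicalein, against 2723 and 3107 with quantile normalization and 3097 and 3656 with cyclic loess.

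All animals carry the label of young adults, and the stage markers of the water arrays went against it. The yolk protein gene *vit-2*, which adults express in the intestine, averaged 10.4 in baicalein, 10.1 in DMSO and 1.57 in water, and *noah-1*, a cuticle gene of molting larvae, averaged 2.00 in baicalein, 1.33 in DMSO and 8.55 in water. These examples were chosen after their values were seen. Effects of DMSO and of stage on *parp-1*, *parp-2* and *sir-2.1* cannot be told apart in any comparison with water. No array can be left out to separate them, since both water arrays share the pattern.

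*parp-1*, which encodes the worm counterpart of the main DNA damage-sensing PARP, was highest in the DMSO animals. Its log2 values were 3.82 and 3.25 on the baicalein arrays, 5.83 and 5.32 on the DMSO arrays and 2.91 and 3.32 on the water arrays, in the order of trials 1 and 2. Both DMSO arrays stood above the other 4, while the baicalein and water arrays overlapped. The means were 3.54 ± 0.40 for baicalein, 5.57 ± 0.36 for DMSO and 3.12 ± 0.29 for water (SD, n = 2 each).

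*parp-2*, the gene of a second PARP that also acts at DNA breaks, followed the same order of DMSO above the rest. Its log2 values were 2.70 and 2.15 on the baicalein arrays, 4.92 and 4.47 on the DMSO arrays and 2.12 and 2.74 on the water arrays. The lowest DMSO array lay 1.77 above the highest baicalein array, and the baicalein and water arrays overlapped almost completely. Group means were 2.42 ± 0.39 for baicalein, 4.69 ± 0.32 for DMSO and 2.43 ± 0.44 for water (SD, n = 2 each).

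*sir-2.1* had a narrower range. It measured 2.56 and 2.55 on the baicalein arrays, 3.35 and 3.31 on the DMSO arrays and 2.86 and 3.15 on the water arrays. DMSO was again the highest group and baicalein the lowest, with water between them, and no groups overlapped. The means were 2.56 ± 0.0057 for baicalein, 3.33 ± 0.024 for DMSO and 3.00 ± 0.21 for water (SD, n = 2 each). Its trials lay closest together in baicalein and DMSO and farthest apart in water.

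**Figure D1:**
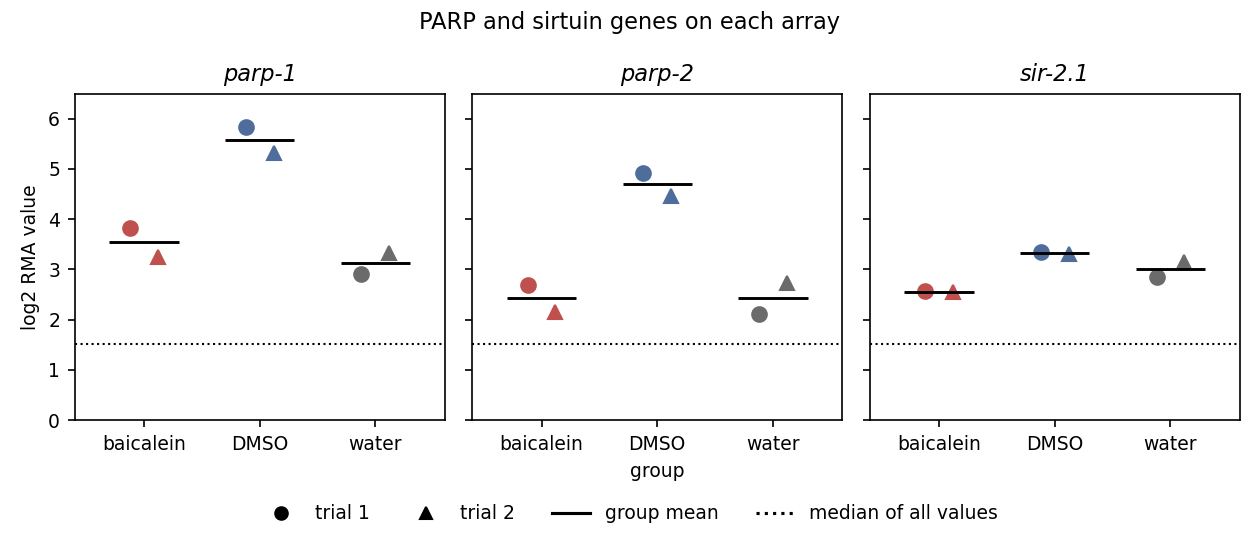
Log2 RMA value (vertical axis) of *parp-1*, *parp-2* and *sir-2.1* on each of the 6 arrays, by group (horizontal axis), with circles for trial 1, triangles for trial 2, bars for group means and a dotted line at 1.51, the median of all values. Both PARP genes stand highest in DMSO, at 4.47 to 5.83, with baicalein and water overlapping, and *sir-2.1* spans only 2.55 to 3.35.

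The comparison of baicalein with DMSO asks what the flavonoid does beyond its solvent, though the part of stage in it was not tested. All 3 members were called lower in baicalein, where 7.03% of all probe sets were called lower and 1.73% higher, and their arrays did not overlap, as was the case with baicalein lower for 22.3% of all probe sets. Their count carries no weight of its own, because the members are named only in the authors' table for the same comparison, which keeps entries with a p of 0.05 or less in their analysis. Among the 3339 probe sets that this table names with a single gene, 38.1% were called lower and 8.72% higher. In whole animals, fewer cells of a type and less RNA per cell cannot be told apart.

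*parp-2* had the greatest difference of the 3, a fall of 2.27 on the log2 scale (SE 0.30, adjusted p = 0.0106 by limma), which is 4.83-fold lower in baicalein, with a 95% interval of 2.91 to 8.02-fold. *parp-1* fell by 2.04 (SE 0.29, adjusted p = 0.0118 by limma), 4.10-fold lower with an interval of 2.55 to 6.61-fold. Of all probe sets 0.634% had a lower difference than *parp-2* and 1.19% a lower one than *parp-1*. These ranks carry no weight of their own either, because the genes were named through the same comparison. With both water arrays out of the fit the adjusted p by limma was 0.0293 for *parp-2* and 0.0346 for *parp-1*, and both calls depended on the DMSO arrays. Without DMSO trial 1 the adjusted p was 0.0938 for *parp-1* and 0.0929 for *parp-2*, and without DMSO trial 2 it was 0.0544 and 0.0554, while the differences stayed between -1.78 and -2.50. With the methods' analysis of variance in place of limma, the adjusted p was 0.166 for *parp-1* and 0.161 for *parp-2*.

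*sir-2.1* fell by 0.77 (SE 0.18, adjusted p = 0.0463 by limma), 1.71-fold lower in baicalein with a 95% interval of 1.27 to 2.29-fold. A lower difference was found for 11.2% of all probe sets, so the change of *sir-2.1* was not unusual in size. The call was lost when any of the 6 arrays was left out, with adjusted p between 0.0629 and 0.193 and differences between -0.79 and -0.76. With quantile normalization applied again the difference was -0.37 (adjusted p = 0.338 by limma) and with cyclic loess -0.41 (adjusted p = 0.259). The intervals of the PARP genes, -2.72 to -1.35 for *parp-1* and -3.004 to -1.54 for *parp-2*, lay below that of *sir-2.1*, -1.20 to -0.35, though the difference between the genes was not tested.

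The comparison of DMSO with water sets the solvent against its absence, but the stage markers differed too, so it does not isolate the solvent. Of the members 2 were called higher in DMSO, where 10.9% of all probe sets were called higher and 16.7% lower. Of those named in the table of baicalein against DMSO, as the members are, 38.99% were called higher and 13.8% lower. *parp-1* was higher by 2.46 on the log2 scale (SE 0.29, adjusted p = 0.00118 by limma), 5.49-fold with a 95% interval of 3.41 to 8.83-fold. *parp-2* was higher by 2.27 (SE 0.30, adjusted p = 0.00214 by limma), 4.81-fold with an interval of 2.90 to 7.99-fold. Both calls held when any array was left out, with adjusted p of at most 0.0145 for *parp-1* and 0.0246 for *parp-2* by limma, and that of *parp-2* was lost with the methods' analysis of variance (adjusted p = 0.0617). Of all probe sets, 1.98% had a higher difference than *parp-1* and 2.37% a higher one than *parp-2*. These calls and ranks share the naming limit given above, because the comparison that named the genes uses the same DMSO arrays.

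*sir-2.1* did not pass the threshold between DMSO and water. The difference was 0.33 (95% interval -0.10 to 0.75, adjusted p = 0.229 by limma), and although both DMSO arrays lay above both water arrays, the gap between them was 0.164. Arrays of these groups did not overlap, with DMSO above water, for 41.1% of all probe sets, so the separation of *sir-2.1* is common on these arrays. The DMSO arrays take part in both comparisons described so far, so the PARP genes' low position in baicalein and high position over water rest on the same 2 DMSO arrays.

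Setting baicalein against water leaves the DMSO arrays out of the difference. None of the 3 members was called by limma, against 6.79% of all probe sets called higher and 15.4% called lower in baicalein, and only *sir-2.1* had an unadjusted p under 0.05, which was 0.0423 by limma and 0.0344 by the methods' analysis of variance. *parp-1* differed by 0.42 (95% interval -0.27 to 1.11, adjusted p = 0.322) and *parp-2* by -0.01 (-0.74 to 0.73, adjusted p = 0.993). These intervals allow a *parp-1* level up to 2.15-fold higher in baicalein, so they do not show that both groups were alike. For *parp-1* the result also turned on the scaling, since it was higher in baicalein by 1.18 (adjusted p = 0.0154) with quantile normalization applied again and by 0.79 (adjusted p = 0.0276) with cyclic loess. The *parp-2* difference had a p of 0.137 or more under all alternatives that were run, and its sign changed among them.

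*sir-2.1* was the only member whose baicalein and water arrays did not overlap, with both baicalein arrays lower by a gap of 0.295, an arrangement found for 31.3% of all probe sets. The difference was -0.45 (95% interval -0.87 to -0.02, adjusted p = 0.122 by limma), 1.36-fold lower in baicalein. Its direction turned with quantile normalization (0.24) and with cyclic loess (0.10). In order of level the groups of *sir-2.1* ran DMSO, water, baicalein, and neither pair of neighbours in that order differed past the threshold.

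**Figure D2:**
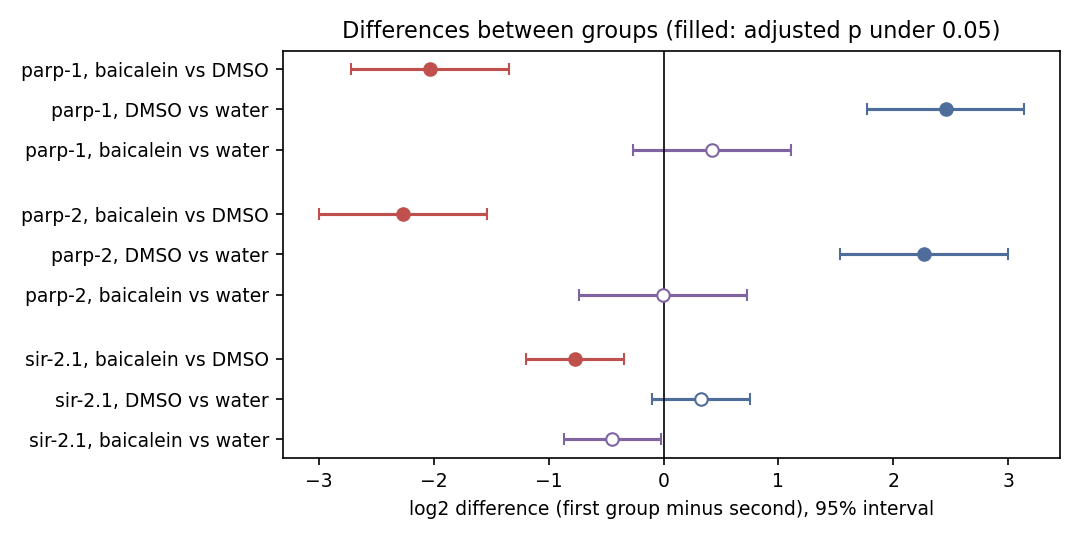
Log2 difference (horizontal axis, first group minus second) of each gene in the 3 comparisons (rows), with 95% intervals as bars and filled points where the limma adjusted p was under 0.05. The PARP genes are about as far below 0 in baicalein against DMSO (-2.04 and -2.27) as they are above 0 in DMSO against water (2.46 and 2.27), and their intervals for baicalein against water span 0.

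**Figure D3:**
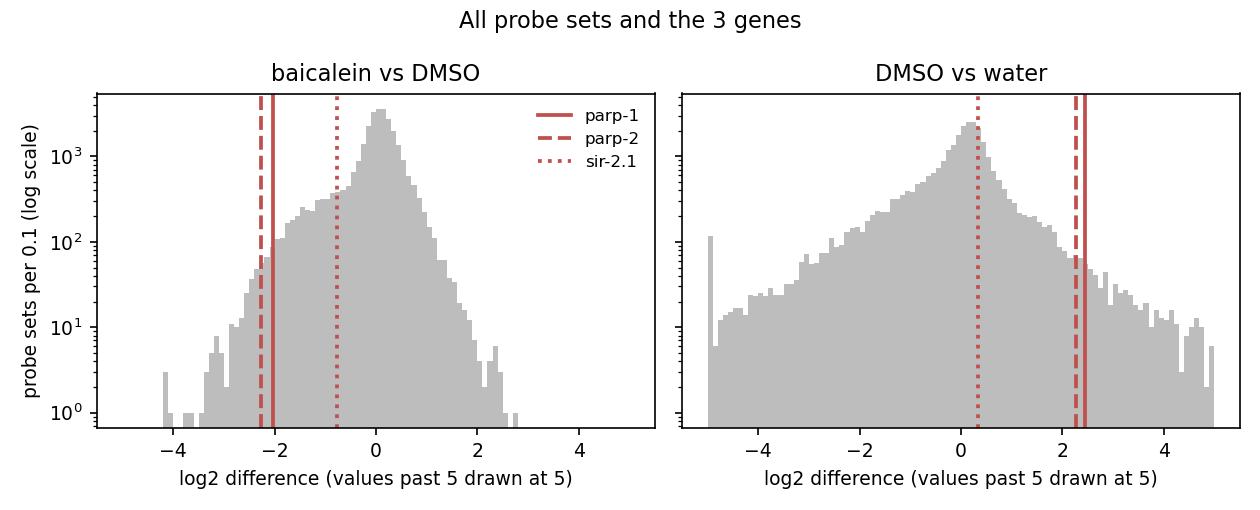
Number of probe sets per 0.1 of log2 difference (vertical axis, log scale) across all 29317 probe sets in baicalein against DMSO (left) and DMSO against water (right), with differences past 5 drawn at 5 and vertical lines at the 3 genes. Lines of *parp-1* and *parp-2* stand in the lower tail on the left and in the upper tail on the right, with *sir-2.1* nearer the bulk on both sides.

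For the PARP genes the trial gaps had the same sign in baicalein and DMSO and the other sign in water. In baicalein and in DMSO the trial 1 array was the higher, by 0.57 and 0.51 for *parp-1* and by 0.55 and 0.46 for *parp-2*. In water it was the lower, with trial 1 minus trial 2 at -0.41 for *parp-1* and -0.62 for *parp-2*. Both PARP genes thus deviated in the same direction on every array. For *sir-2.1* the same gaps were 0.0080 in baicalein, 0.033 in DMSO and -0.29 in water.

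Other genes of these families could be followed only where the tables name them. Of a list of 5 PARP and poly(ADP-ribose) glycohydrolase (PARG) genes, 2 were named, which are *parp-1* and *parp-2* themselves, and *tank-1*, *parg-1* and *parg-2* were not analysed here. Of 4 sirtuin genes, *sir-2.1* and *sir-2.3* were named, and *sir-2.2* and *sir-2.4* were not analysed here. *sir-2.3*, which encodes a mitochondrial sirtuin, measured 1.21 and 0.93 in baicalein, 1.13 and 1.497 in DMSO and 0.73 and 0.79 in water. Every one of these values lies below 1.51, the median of all values, and none of its 3 comparisons was called (adjusted p by limma of 0.592 in baicalein against DMSO, 0.0915 in DMSO against water and 0.305 in baicalein against water). None of 13 genes of NAD synthesis and salvage was named, so the supply of NAD was not analysed here.

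Of 7 other genes that use or convert NAD or its breakdown products, 2 were named, and neither fell with the PARP genes. These 2 are named only in the table of DMSO against water. Of the single-gene probe sets it names, 1.16% were called lower in baicalein than in DMSO. That neither fell is therefore favoured by how they were named. *nadk-2*, the gene of an NAD kinase that makes NADP, measured 5.77 and 5.44 in baicalein, 5.45 and 5.50 in DMSO and 4.59 and 4.92 in water. Baicalein and DMSO overlapped (difference 0.13, adjusted p = 0.798 by limma), and against water it was higher by 0.85 in baicalein (adjusted p = 0.0279) and by 0.72 in DMSO (adjusted p = 0.0420). The DMSO call was lost when any of the water or DMSO arrays was left out (adjusted p from 0.080 to 0.25 by limma), and the baicalein call when any array but baicalein trial 2 was left out (adjusted p from 0.0594 to 0.180). *anmt-2*, the gene of a methyltransferase related to the enzyme that methylates nicotinamide, measured 5.62 and 4.85 in baicalein, 4.69 and 4.51 in DMSO and 3.76 and 3.67 in water. It was higher in baicalein than in water by 1.52 (adjusted p = 0.00932), and its differences of 0.64 between baicalein and DMSO (adjusted p = 0.252) and 0.88 between DMSO and water (adjusted p = 0.0550) did not pass. Its call against water was lost without water trial 1 (adjusted p = 0.0549 by limma) or water trial 2 (0.0678), and the difference between baicalein and DMSO passed at 1.02 without baicalein trial 2 (0.0335).

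The list of SIR-2.1 partners and targets holds 6 genes, of which 2 were named, and they differed in pattern. *daf-16*, the FOXO factor of insulin signalling, measured 3.79 and 3.81 in baicalein, 4.28 and 4.33 in DMSO and 4.69 and 5.04 in water. It was lower in baicalein than in water (difference -1.07, adjusted p = 0.00813 by limma), and the steps from DMSO, -0.51 for baicalein against DMSO (adjusted p = 0.176) and -0.56 for DMSO against water (adjusted p = 0.0672), did not pass. Unlike the PARP genes, *daf-16* was highest in water. Its call was lost without water trial 2 (adjusted p = 0.0716 by limma) and with quantile normalization, where the difference was -0.49 (adjusted p = 0.236). *hcf-1*, the gene of a nuclear factor that holds DAF-16 in check, measured 3.05 and 2.51 in baicalein, 3.95 and 4.04 in DMSO and 3.09 and 2.84 in water, with DMSO again above the rest. It fell by 1.21 in baicalein against DMSO (adjusted p = 0.0266) and was higher by 1.03 in DMSO than in water (adjusted p = 0.0171), and leaving out either DMSO or either water array ended both calls (adjusted p from 0.0593 to 0.139).

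Zinc-dependent histone deacetylases remove the same acetyl groups as sirtuins but without NAD. Of 8 such genes 4 were named, and all 4 were lower in baicalein than in DMSO, with a median difference of -1.63 against 0.05 for all probe sets. Of all probe sets 7.03% were called lower there and 10.9% higher in DMSO than in water. Of those named in the table of baicalein against DMSO, which names all 4, the shares were 38.1% (median -0.45) and 38.99% (median 0.36). In log2 difference *hda-3* fell by 1.79, *hda-6* by 1.69, *hda-2* by 1.57 and *hda-10* by 1.39. All 4 were higher in DMSO than in water (median 1.46 against 0.09 for all probe sets). None was called between baicalein and water (median -0.04, against 0.07 for all probe sets). There 0 of the 4 had an unadjusted p under 0.05 by limma or by the methods' analysis of variance. In that comparison 6.79% of all probe sets were called higher and 15.4% lower in baicalein. With quantile normalization 1 of the 4 was called there, *hda-10*, higher in baicalein by 0.82 (adjusted p = 0.0459 by limma). Leaving out DMSO trial 1 or DMSO trial 2 left 0 of the 4 called by limma between baicalein and DMSO, with 4 at an unadjusted p under 0.05 and 2 by the methods' analysis of variance, and leaving out either water array left 2 called.

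Base excision and strand break repair is the setting in which PARP enzymes act. Of the 22 genes of that list 14 were named, and all 14 were lower in baicalein than in DMSO, with differences of -1.04 to -2.36 and a median of -1.79 against 0.05 for all probe sets and -0.45 for those the same table names. The 4 with the smallest p were *lig-1*, a DNA ligase (-2.36), *exo-1*, an exonuclease that trims broken ends (-2.01), *brc-2*, the worm BRCA2 that loads RAD-51 (-2.03), and *polh-1*, a polymerase that copies damaged DNA (-2.005). All 14 were higher in DMSO than in water, by 0.96 to 3.21 with a median of 2.24 against 0.09 for all probe sets. Of all probe sets 7.03% were called lower in the first comparison and 10.9% higher in the second. Of those named in the table of baicalein against DMSO, the shares were 38.1% and 38.99% (median 0.36 in the second). The *parp-1* and *parp-2* differences of -2.04 and -2.27 in the first comparison and 2.46 and 2.27 in the second lie within both ranges.

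Between baicalein and water 2 of the 14 repair genes were called, both higher in baicalein, and the median was 0.43 against 0.07 for all probe sets. Of all probe sets 6.79% were called higher, and of those named in the table of baicalein against DMSO, which names all 14, 18.3% were. They were *exo-3*, an endonuclease that cuts at lost bases, by 1.76 and *exo-1* by 1.20, and the other 12 did not pass. With cyclic loess 7 of the 14 were called higher and with quantile normalization 4, and without baicalein trial 2 there were 5. Leaving out DMSO trial 1 left 0 of the 14 called between baicalein and DMSO by limma, with 14 at an unadjusted p under 0.05 and 11 by the methods' analysis of variance, leaving out DMSO trial 2 left 5 and leaving out either water array left 9. All lists share the naming limit given above, so a count of lower genes among those the table of baicalein against DMSO names is favoured by how they were named.

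Of 14 genes of the DNA damage checkpoint 3 were named, all in the table of baicalein against DMSO. Of the single-gene probe sets it names, 38.1% were called lower in baicalein than in DMSO and 38.99% higher in DMSO than in water. Of all probe sets the shares were 7.03% and 10.9%. Between baicalein and water 6.79% of all probe sets were called higher and 15.4% lower in baicalein. *clk-2*, needed for checkpoint signalling, fell by 1.62 in baicalein against DMSO (adjusted p = 0.00688 by limma) and *ced-3*, the caspase of the cell death pathway, by 2.03 (adjusted p = 0.0144). The kinase gene *atm-1* differed by -0.56 (adjusted p = 0.142). *clk-2* was higher in DMSO than in water by 1.96 and *ced-3* by 2.42, the difference of *atm-1* was 0.51 (adjusted p = 0.0915), and none of the 3 was called by limma between baicalein and water, where 0 had an unadjusted p under 0.05 by limma and 1, *clk-2*, by the methods' analysis of variance. The baicalein calls were lost without DMSO trial 1 (adjusted p of 0.0628 for *clk-2* and 0.105 for *ced-3*), and that of *ced-3* also without DMSO trial 2 (0.0557).

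**Figure D4:**
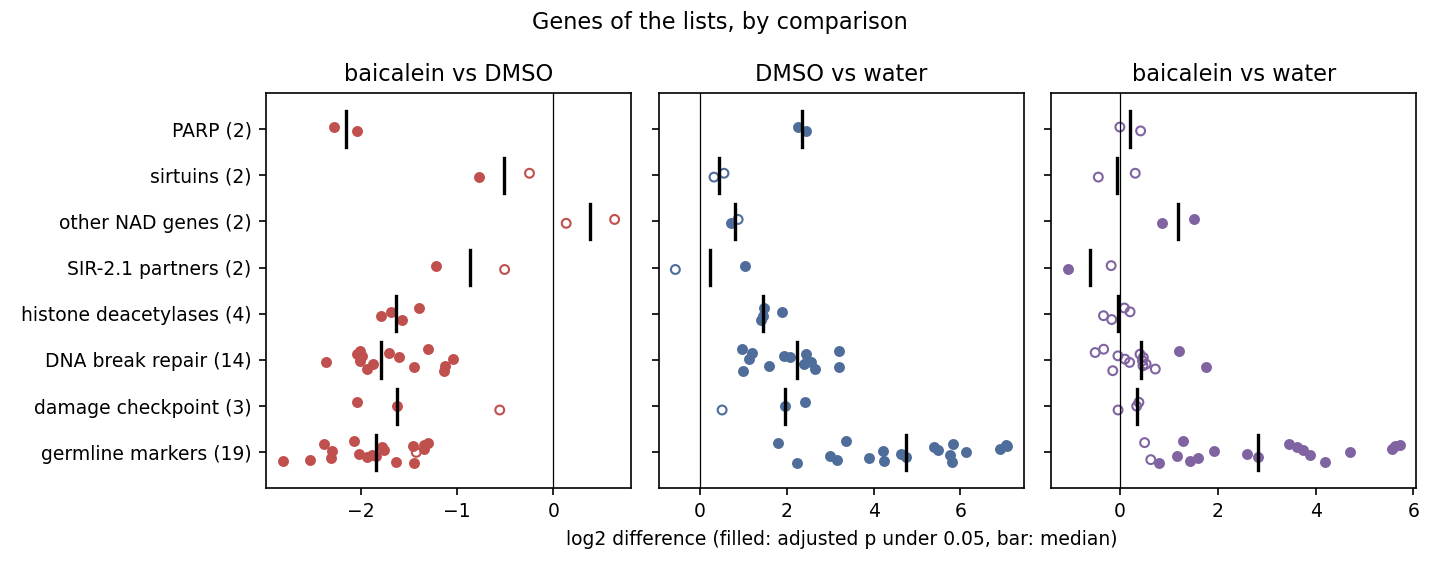
Log2 difference (horizontal axis, its own scale in each panel) of every named gene of each list (rows, number of named genes in brackets) in the 3 comparisons, with filled points where the limma adjusted p was under 0.05 and bars at list medians. The PARP genes sit among the repair genes in all 3 panels, while the germline markers, with a median of 2.82 in baicalein against water, stand above the water level there.

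Tissue markers moved between the groups as well. Of 30 markers of germline and oocytes 19 were named, and 18 were lower in baicalein than in DMSO (median -1.84) and 19 higher in DMSO than in water (median 4.75). Of all probe sets 7.03% were lower in the first comparison (median 0.05) and 10.9% higher in the second (median 0.09), and of those named in the table of baicalein against DMSO, which names all 19, 38.1% (median -0.45) and 38.99% (median 0.36). The 4 with the smallest p in baicalein against DMSO were *gld-3*, a germline translation regulator (-2.81), *pgl-3*, a germ granule protein (-2.305), *oma-1*, a regulator of oocyte maturation (-2.296), and *mex-1*, a protein of early embryos made in the germline (-1.93). Summed over the 19 genes on the linear scale, the germline level was 1550 and 1614 on the baicalein arrays, 4921 and 4659 on the DMSO arrays and 141 and 102 on the water arrays, where 5 of the 19 had means at or below the median of all values. Between baicalein and water 17 of the 19 germline markers were higher in baicalein, with a median of 2.82, where 6.79% of all probe sets and 18.3% of those named in the table of baicalein against DMSO were higher. There 0 of the 2 PARP genes and 2 of the 14 repair genes were called higher, but *parp-1* passed with quantile normalization (difference 1.18) and cyclic loess (0.79), and 7 of the 14 repair genes passed with cyclic loess. Without DMSO trial 1, 0 of the 19 were called between baicalein and DMSO by limma, with 18 at an unadjusted p under 0.05 and 8 by the methods' analysis of variance, and without DMSO trial 2 there were 5 called. The part of the germline in the PARP values was not tested.

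Against water the PARP genes and the median of the germline markers differed from DMSO by unlike amounts, though the difference between genes was not tested. *parp-1* stood 2.46 and *parp-2* 2.27 higher in DMSO than in water, while the median of the germline markers was 4.75. In baicalein against DMSO the values were closer together, at -2.04 for *parp-1*, -2.27 for *parp-2* and -1.84 for the median of the germline markers. Single germline markers ranged there from -2.81 to -1.30, so both PARP genes lie within both germline ranges. In the trial gaps, the germline markers averaged 0.13 higher in trial 1 of baicalein (11 of 19 higher) and 0.085 higher in trial 1 of DMSO (14 of 19). Both PARP genes had the same sign there. In water the germline markers averaged 0.45 higher in trial 1, with 18 of 19 higher, where both PARP genes were lower. In water 5 of the 19 had means at or below the median of all values.

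**Figure D5:**
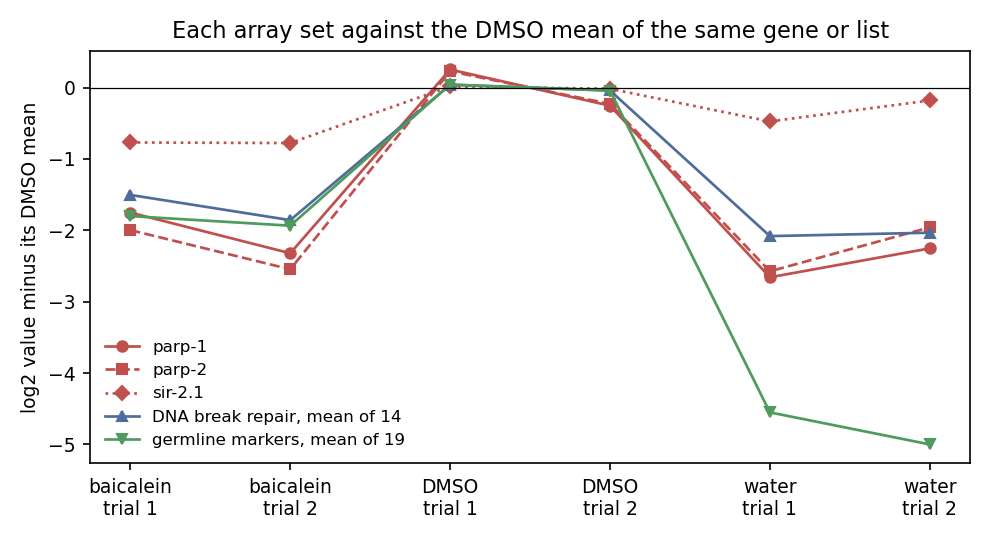
Log2 value minus the DMSO mean of the same gene or list (vertical axis) on each array (horizontal axis) for *parp-1*, *parp-2*, *sir-2.1*, the mean of 14 repair genes and the mean of 19 germline markers; the lines only connect the points of a gene or list. PARP and repair genes lie at similar depths in baicalein and water, and the germline markers drop much further in water than in baicalein.

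The other marker lists held genes of more than one pattern. Of all probe sets 1.73% were called higher and 7.03% lower in baicalein than in DMSO. Between DMSO and water 10.9% were called higher and 16.7% lower in DMSO. For 7 neuronal genes the summed levels were 790 and 848 in baicalein, 546 and 545 in DMSO and 1066 and 1103 in water, and 3 were higher and 0 lower in baicalein than in DMSO. For 9 body wall muscle genes the sums were 2760 and 2617 in baicalein, 1884 and 1860 in DMSO and 2119 and 2118 in water, and 4 were higher and 0 lower in baicalein than in DMSO. In DMSO against water, 0 neuronal genes were called higher and 6 lower, and 1 muscle gene was called higher and 3 lower. Both sums were lowest in DMSO, the group in which the PARP genes were highest. Linear sums follow the brightest genes, such as *snb-1* among the neuronal genes, at 8.72 and 8.67 on the DMSO arrays.

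In 3 further lists the sums were also taken without a few genes that carried them, a step added after the values were seen. For 9 intestinal genes the sums were 2438 and 2381 in baicalein, 1741 and 1575 in DMSO and 1008 and 1112 in water, and without *vit-2* they were 1000 and 1099 in baicalein, 612 and 503.7 in DMSO and 1006 and 1108 in water. Of the 9, 2 were higher and 0 lower in baicalein than in DMSO, while DMSO against water had 2 higher and 5 lower. For 6 sperm genes the sums were 472 and 425 in baicalein, 228 and 209 in DMSO and 29.3 and 31.4 in water, and without the major sperm protein genes *msp-57* and *msp-31* they were 25.9 and 19.7 in baicalein, 59.3 and 55.7 in DMSO and 22.1 and 25.5 in water. Both of those genes were higher in baicalein than in DMSO. The genes *spe-39* (difference -1.90) and *spe-44* (-1.39), which act in sperm formation, were lower and stood highest in DMSO, as did the PARP genes. Without the major sperm protein genes, most of the DMSO sum came from *spe-39* alone, at 5.37 and 5.39 on the DMSO arrays.

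For 11 genes of hypodermis and molting the sums were 1053 and 920 in baicalein, 791 and 752 in DMSO and 2270 and 2187 in water, and without the collagen gene *col-119* they were 67.1 and 61.3 in baicalein, 150 and 141 in DMSO and 2268 and 2185 in water. Of the 11, 2 were higher and 2 lower in baicalein than in DMSO, while DMSO against water had 2 higher and 9 lower. The gene *ptr-2* of this list averaged 2.89 in baicalein, 6.53 in DMSO and 5.17 in water and was also highest in DMSO. Without *col-119*, most of the DMSO sum came from *ptr-2* alone, at 6.55 and 6.51 on the DMSO arrays and 3.26 and 2.52 on the baicalein arrays. These examples were chosen after their values were seen. The part of these lists in the differences of the members was not tested.

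Single probe sets whose log2 values ran closest to each member were sought among 4883 others with a single gene name, by the Euclidean distance between values centred on their own mean over the 6 arrays. For *parp-1* the nearest were *pafo-1* (distance 0.225), *ced-3* (0.245), *F57C9.4* (0.254), *ZK1248.15* (0.312) and *T24D1.2* (0.323). *parp-2* stood at 0.452 from *parp-1*, with 12 genes nearer, so the 2 PARP genes were among the closest of all named genes to each other without being nearest. Nearest to *parp-2* were *wrn-1*, a helicase gene (0.253), *enu-3.2* (0.331), *rcor-1* (0.377), *B0432.8* (0.379) and *ZK1248.15* (0.400).

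*sir-2.1* lay at 2.204 from *parp-1*, with 1495 genes nearer to *parp-1* than *sir-2.1* was. Its own nearest genes were *spop-1* (0.166), *larp-5* (0.175), *sti-1* (0.178), *fubl-2* (0.193) and *exos-9* (0.198). Their differences lay between -0.84 and -0.70 for baicalein against DMSO and between 0.27 and 0.42 for DMSO against water. That these are near those of *sir-2.1* follows from how the genes were chosen. The distances describe these 6 arrays and carry no test.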

How the data were processed

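The authors extracted RNA from whole worms and, per the methods, made the deposited log2 values with RMA in Affymetrix Expression Console, which subtracts background and normalizes the arrays by quantiles on the log2 scale. The upper quartiles of the 6 arrays run from 2.46 to 3.26, so they do not share 1 distribution, and how the arrays were grouped for normalization, the software version and the annotation build are not given in the sources used here. The methods speak of 3 samples per group, and 2 arrays per group were analysed here.

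The authors' tables from Partek hold other columns of their own comparisons (unadjusted p-values of 0.05 or less, ratios, fold changes, F and sums of squares), which were deposited with identifiers and were used for gene names alone. These name 4957 probe sets, 4886 of them with a single gene, and 113 lines of the table of DMSO against water, shifted by a comma, were realigned. Symbols were updated by RefSeq accession, symbol or synonym.

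The log2 values entered limma 3.58.1 (R 4.3.3) with 3 groups in a single fit (3 residual and 3.51 prior degrees of freedom), with no filter. The fit was tested on simulated data. Python 3.11.15 with numpy 2.4.6, pandas 2.3.3 and matplotlib 3.10.9 did the rest. All members are named, with every measured PARP, PARG, sirtuin and NAD synthesis gene, up to 4 genes per other list by smallest p in baicalein against DMSO and the 5 nearest genes to each member. A gene with several probe sets is given by the brightest. *exo-3*, *vit-2* and *noah-1* were chosen after their values were seen. The members and lists were chosen with earlier results of these data known.

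Alternatives were a variance trend, the compared arrays alone, centring, repeated quantile and cyclic loess normalization, a filter on dim probe sets, the trial number as a block, the methods' analysis of variance, unadjusted p and each array left out. The number of arrays limits the precision, and control probe sets, which carry no mark in the values, stayed in.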

Additional observations from a re-analysis of the deposited data

How the results depend on the processing

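With an array left out, *parp-1* ran from -2.32 to -1.75, *parp-2* from -2.55 to -1.997 and *sir-2.1* from -0.79 to -0.76 in baicalein against DMSO. In baicalein against water *parp-2* ran from -0.31 to 0.30. The calls lost are given with each gene. With the methods' analysis of variance and Benjamini-Hochberg adjustment, -2.04 for *parp-1* (adjusted p = 0.166), -2.27 for *parp-2* (0.161) and -0.77 for *sir-2.1* (0.152) no longer passed in baicalein against DMSO, nor did 2.27 for *parp-2* in DMSO against water (0.0617). *sir-2.1* also lost its call at -0.77 with a variance trend (adjusted p = 0.112 by limma) and with the compared arrays alone (0.0965), at -0.37 with quantile normalization and at -0.41 with cyclic loess. It kept the call when arrays were centred and when dim probe sets were left out (adjusted p = 0.0423 and 0.0488 by limma). In baicalein against water, *parp-1* passed at 1.18 with quantile normalization and 0.79 with loess, *parp-2* turned to 0.0153 with centring, 0.50 with quantile normalization and 0.51 with loess, and *sir-2.1* turned to 0.24 and 0.10 with these scalings and passed at -0.45 on an unadjusted p by limma or by the methods' analysis of variance. *daf-16* in baicalein against DMSO turned to 0.10 with quantile normalization, and *nadk-2* ran from -0.0341 to 0.30 with an array left out. Among genes not called in baicalein against water, quantile normalization and loess turned *hcf-1* to 0.49 and 0.33, *hda-2* to 0.27 and 0.38 and *hda-3* to 0.0651 and 0.21, and loess turned *atm-1* to 0.13. With an array left out, *atm-1* ran from -0.17 to 0.0896, *hcf-1* from -0.46 to 0.0902, *hda-6* from -0.28 to 0.68 and *hda-10* from -0.31 to 0.48 there. The cause of these changes was not tested.

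The count of probe sets called was 2567 in baicalein against DMSO, and 1178 with the compared arrays alone, 6146 with unadjusted limma p, 5032 with the methods' unadjusted analysis of variance and 1 after its adjustment. With an array left out it ran from 0 (without DMSO trial 1, where 4882 had an unadjusted p under 0.05 by limma and 3443 by the methods' analysis of variance) to 4215. In DMSO against water it was 8073, with 3845 by the adjusted analysis of variance and 5145 to 9839 with an array left out. In baicalein against water it was 6505, with 2454 by the adjusted analysis of variance, 10711 on unadjusted limma p and 3329 to 8825 with an array left out.

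The labels do not say whether the trial numbers pair the samples. Over all probe sets the deviations of trials correlated at 0.16 between baicalein and DMSO, -0.05 between DMSO and water and -0.07 between baicalein and water. These correlations cannot decide it, since a shared trial need not move most probe sets. With the trial number as a block, *sir-2.1* was at -0.77 with an adjusted p of 0.0709 by limma in baicalein against DMSO, and no other call of the members changed.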
